A study of Mus musculus with 9 samples.

Results

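Dorsal root ganglia are where the cell bodies of sensory neurons lie beside the spinal cord, wrapped by satellite glia. The 10 genes described here are expressed by the endothelial cells that line their capillaries. They were taken from the deposited table by symbol: Cldn5, Esam, Pecam1, Cdh5, Tek, Kdr, Flt1, Vwf, Plvap and Abcb1a. All 10 matched an identifier, out of 45904 in the table, and all 10 were among the 17601 identifiers with a mean of at least 0.2 FPKM (fragments per kilobase, corrected for how deeply each library was sequenced) over the libraries.

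RNA came from whole sciatic ganglia of C57BL/6 mice, in 3 groups of 3 libraries, each library a pool of 2 mice killed 24 h after surgery. The young sham group was 8 to 10 weeks old and had sham surgery. The aged sham group was 20 to 22 months old and had sham surgery, and the aged injury group was of that same age and had an injury of the sciatic nerve. No young injured group was analysed here, so age and injury can be compared only through the aged sham group. The labels name no transgene, and whole ganglia hold every cell type, so less RNA of an endothelial gene per cell and fewer endothelial cells cannot be told apart in any value below.

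Endothelial cells of nerve capillaries are joined by tight junctions and, with the perineurium, form the blood-nerve barrier. Capillaries within sensory ganglia are known to be more permeable than those of the nerve trunk, and some are fenestrated. Cldn5 encodes claudin-5, the leading tight junction claudin of barrier endothelium, and Abcb1a encodes the efflux pump P-glycoprotein, while Plvap encodes the protein of the diaphragms that span fenestrae and caveolae in permeable vessels. The remaining genes encode adhesion molecules (Esam, Pecam1 and Cdh5, which is VE-cadherin), receptors for angiopoietins (Tek) and for VEGF (Kdr and Flt1), and von Willebrand factor (Vwf), which is stored in endothelial granules.

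Cldn5 was the gene of the 10 that passed the test within the aged animals, while the VEGF receptor genes Kdr and Flt1 passed in no comparison. Tek and Abcb1a, whose promoters are described below, also passed in none. A link between promoter letters and calls was not tested. The promoters of Cldn5, Kdr and Flt1 are shown as examples, 250 bases before to 50 bases after the RefSeq start site, from RefSeq on GRCm38.p6. They are chr16:18776597-18776896 on the plus strand (Cldn5) and, on the minus strand, chr5:75978406-75978705 (Kdr) and chr5:147725962-147726261 (Flt1). Capitals mark every match, on either strand, to the 7 motifs searched. GGAA is the core bound by ETS factors and GGGCGG that bound by SP and KLF factors. ATTGG is the reverse complement of the CCAAT box, which lies upstream of many start sites. AGATAA stands for binding by GATA factors, whose family includes regulators of blood and vessel genes. AACAAT stands for SOX factors, among them those of endothelial cells, GTAAACA for forkhead factors, and TATAAA for the TATA box near a start site. None of these motifs contains another on either strand.

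Cldn5: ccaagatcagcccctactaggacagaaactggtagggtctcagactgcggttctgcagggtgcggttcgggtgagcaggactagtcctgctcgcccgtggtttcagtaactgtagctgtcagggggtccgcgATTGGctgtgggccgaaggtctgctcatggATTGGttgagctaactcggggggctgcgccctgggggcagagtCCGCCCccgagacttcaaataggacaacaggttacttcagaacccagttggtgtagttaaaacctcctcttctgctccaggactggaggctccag
Kdr: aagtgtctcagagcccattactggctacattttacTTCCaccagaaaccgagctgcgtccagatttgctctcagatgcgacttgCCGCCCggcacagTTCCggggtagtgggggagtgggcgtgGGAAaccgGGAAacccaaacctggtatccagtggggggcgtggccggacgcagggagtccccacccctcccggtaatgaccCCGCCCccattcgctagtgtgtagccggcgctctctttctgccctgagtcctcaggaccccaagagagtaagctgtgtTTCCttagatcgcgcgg
Flt1: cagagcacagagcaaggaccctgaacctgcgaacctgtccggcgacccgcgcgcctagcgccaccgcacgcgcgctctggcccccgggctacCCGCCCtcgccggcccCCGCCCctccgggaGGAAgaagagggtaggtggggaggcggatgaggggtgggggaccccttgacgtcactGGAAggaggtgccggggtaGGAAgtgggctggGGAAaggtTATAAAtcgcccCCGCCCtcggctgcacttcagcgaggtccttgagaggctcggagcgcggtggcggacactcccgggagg

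The Cldn5 window held 2 CCAAT boxes, 1 SP/KLF box and no ETS core. The Kdr window held 5 ETS cores and 2 SP/KLF boxes, and the Flt1 window 4 ETS cores, 3 SP/KLF boxes and 1 TATA match. Among 32817 RefSeq promoter windows of this length, 96% held an ETS core, 35.6% an SP/KLF box, 37.4% a CCAAT box and 13.6% a TATA match. Windows for Tek and Abcb1a were also in the RefSeq table, so 5 of the 10 genes matched. The Tek window held 2 ETS cores, 1 GATA and 1 SOX match, and the Abcb1a window 5 ETS cores and 1 FOX match. The shares of windows with those last 3 motifs were 11.2%, 10.7% and 3.65%. The RefSeq start site of the Abcb1a window lies 92986 bases upstream of the start of the gene position given below for Abcb1a. That distance was 0 bases for Cldn5, Tek and Flt1 and 3 for Kdr. Guanine and cytosine made up 58.3% of the Cldn5 window, 60.7% of the Kdr window and 70.7% of the Flt1 window, with a median of 52.7% over all windows. These are matches of letters only.

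All 10 genes were detected in every library. Whole reads recovered from the steps of the FPKM values gave totals of 11004067 to 15981223 reads per library over the tested genes and 118 to 633 reads per library for each of the 10, a counting error of 3.97% to 9.21%. On the FPKM scale, which divides by gene length, Cldn5 was the highest, with a mean of 12.29 FPKM over the 9 libraries. Plvap (7.632), Esam (7.55), Pecam1 (7.262), Cdh5 (6.845) and Abcb1a (6.187) formed a middle group. Flt1 (2.859), Tek (2.347), Vwf (2.228) and Kdr (2.126) were lower. Flt1 was below Abcb1a in 9 of 9 libraries and Tek was below Flt1 in 9 of 9. Neighbours within the middle group changed places between libraries: Plvap was above Esam in 5 of 9, Esam above Pecam1 in 6 of 9, Pecam1 above Cdh5 in 6 of 9 and Cdh5 above Abcb1a in 8 of 9. Cldn5 was above Plvap in 7 of 9. Tek stood above Vwf, and Vwf above Kdr, in 5 of 9 libraries each, so the order of these 3 genes is not resolved by their spread.

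**Figure D1:**
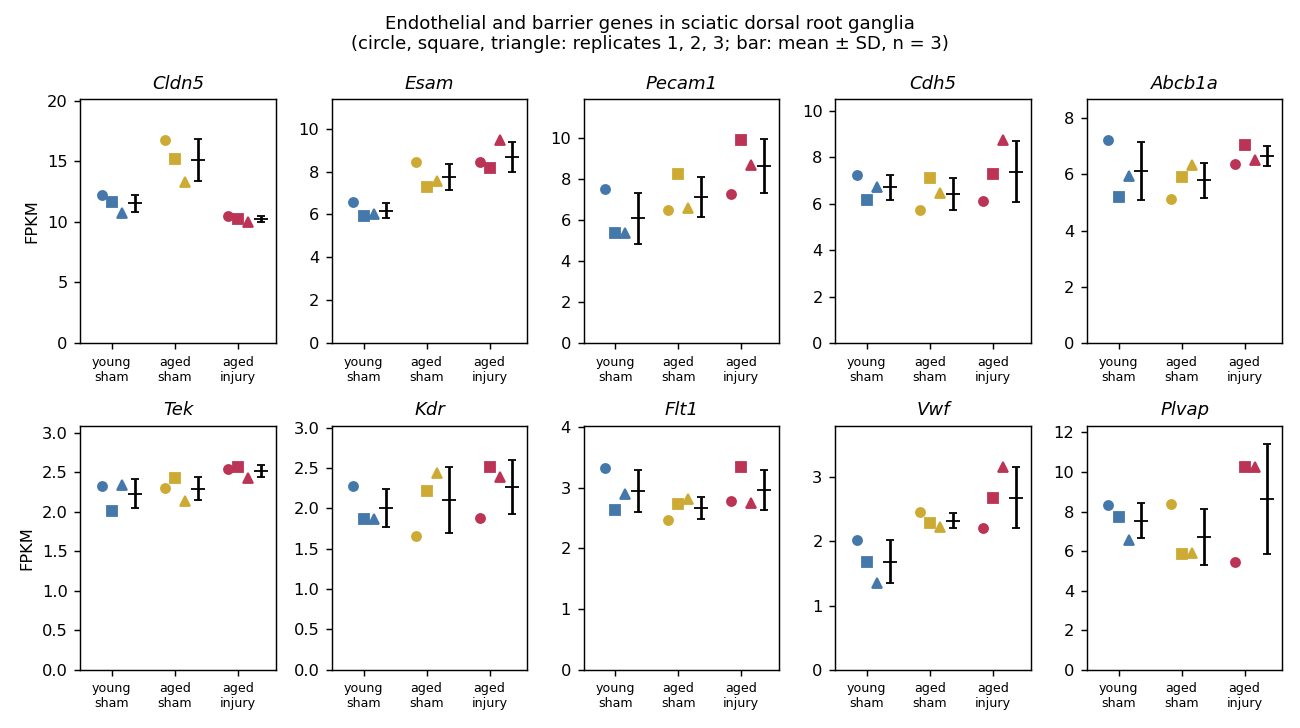
Levels in FPKM (vertical axes, from 0) of the 10 endothelial and barrier genes in young sham, aged sham and aged injury ganglia; each point is 1 library and each bar the mean ± SD of 3. Cldn5 is highest in the 3 aged sham libraries (13.29 to 16.76 FPKM) and lowest in the 3 aged injury libraries (10.03 to 10.51), while Esam and Vwf lie higher in both aged groups than in the young group.

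Facts of the libraries bear on all comparisons. The pools differed in sex as well as age: Xist, the RNA of the inactive X chromosome, was at most 0.02 FPKM in the young libraries, 1.753 in aged sham replicate 1 and 9.77 to 13.05 in the other 5 aged libraries. Ddx3y, a Y-linked gene, was at 13.77 to 15.7 FPKM in the young libraries, at 10.88 in aged sham replicate 1 and at or under 0.0133 in the others. Age and sex of the pools therefore cannot be told apart. Aged sham replicate 1 also had 95.61 FPKM of Atf3, an injury-induced transcription factor gene, against 27.06 and 27.28 in its group, so the values of the 10 genes that use the aged sham group are also given without that library; Atf3 was looked up after values were seen. All 12 sensory neuron markers passed the filter, with sums of 5590 to 6840 FPKM per library, and the lymphatic genes Prox1 and Ccl21a were below the filter, Ccl21a at 0 in every library.

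Cldn5 and the other junction and adhesion genes were compared first between aged and young sham ganglia. Cldn5 (ENSMUSG00000041378, chr16:18776847-18778262, mm10) measured 12.18, 11.66 and 10.77 FPKM in the young libraries and 16.76, 15.21 and 13.29 in the aged sham libraries. The 3 aged values all lay above the 3 young values. The rise was 1.3-fold (log2 change 0.38, 95% confidence interval 0.18 to 0.58), with group means of 11.5 ± 0.711 and 15.1 ± 1.74 FPKM (SD, n = 3). It passed the threshold narrowly with limma's moderated test and Benjamini-Hochberg adjustment over all genes (adjusted p = 0.0474). In the 9 fits that left out 1 library each the log2 change stayed at 0.30 to 0.47, and the call was lost in all 9 (adjusted p 0.0546 to 0.167). Without aged sham replicate 1 it was 0.30 (adjusted p = 0.0774). No set of 8 libraries kept the call for age.

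Esam encodes a junctional adhesion molecule of endothelial cells and platelets (ENSMUSG00000001946, chr9:37528078-37538319). It measured 6.59, 5.95 and 6 FPKM in young sham and 8.45, 7.28 and 7.58 in aged sham ganglia. Here too every aged value was above every young value, but the log2 difference of 0.33 (interval 0.13 to 0.52) did not pass (limma adjusted p = 0.0621). Vwf (ENSMUSG00000001930, chr6:125546774-125686679) measured 2.02, 1.68 and 1.35 FPKM in young and 2.46, 2.28 and 2.22 in aged sham ganglia. Its groups did not overlap either, and its log2 difference was 0.46 (interval 0.08 to 0.83, limma adjusted p = 0.125). With Cldn5, these were the 3 of the 10 genes whose groups did not overlap, all with the aged group higher, as for 29.2% of all tested genes in either direction. The count of called genes, 1 of 10, stands beside 4.02% of all tested genes.

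The other 7 genes gave log2 differences of -0.18 to 0.23 with age, none called, and their groups overlapped. Kdr (ENSMUSG00000062960, chr5:75932827-75978458), the main signalling receptor for VEGF, was at 2.28, 1.87 and 1.87 FPKM in young and 1.65, 2.22 and 2.44 in aged sham ganglia, a log2 difference of 0.05 with an interval from -0.33 to 0.43. Tek (ENSMUSG00000006386, chr4:94739289-94874976) gave 0.04 (interval -0.18 to 0.27) and Flt1 (ENSMUSG00000029648, chr5:147561604-147726011), a VEGF receptor that also exists as a soluble trap, -0.13 (interval -0.40 to 0.14). With 3 pools a group, these intervals still hold differences up to their bounds. Without aged sham replicate 1 the log2 differences with age were 0.26 for Esam, 0.42 for Vwf, 0.21 for Kdr, 0.04 for Tek, -0.08 for Flt1, 0.29 for Pecam1, 0.02 for Cdh5, -0.34 for Plvap and 0.02 for Abcb1a. None of these passed (limma adjusted p 0.114 to 0.958), and those of Cdh5 and Abcb1a changed sign. Over the 10 genes the median log2 difference was 0.05 and 6 of 10 were positive, against a median of 0.05 and 56.7% positive over all genes tested.

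After nerve injury in aged mice, Cldn5 was the one gene of the 10 that was called, and it fell. The aged injury libraries measured 10.51, 10.22 and 10.03 FPKM, against 16.76, 15.21 and 13.29 in aged sham. Every injury value lay below every sham value, and the injury libraries were the 3 lowest of all 9. The level was 1.46-fold lower (log2 change -0.55, interval -0.74 to -0.35), with a mean of 10.3 ± 0.239 FPKM (SD, n = 3) after injury (limma adjusted p = 0.0131). Without aged sham replicate 1 the log2 change was -0.47 (adjusted p = 0.0266). The call was lost in 3 of the 9 fits with 1 library left out, without aged sham replicate 2 (adjusted p = 0.0561), aged injury replicate 1 (0.0558) or aged injury replicate 3 (0.0654), with log2 changes of -0.54, -0.56 and -0.53. It was kept under all 8 other settings tried (adjusted p 0.00926 to 0.0492), which include a test on the recovered reads added after the data were seen.

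The other 9 genes all had positive log2 differences after injury, of 0.11 to 0.32, and none passed. That all 9 were positive depended on aged sham replicate 1. Without it Kdr was at -0.05, and the others were at 0.22 for Esam, 0.21 for Pecam1, 0.11 for Cdh5, 0.13 for Tek, 0.08 for Flt1, 0.23 for Vwf, 0.49 for Plvap and 0.11 for Abcb1a, with none called (limma adjusted p 0.226 to 0.911). Abcb1a (ENSMUSG00000040584, chr5:8660077-8748575) measured 6.37, 7.06 and 6.51 FPKM after injury and 5.12, 5.92 and 6.35 in aged sham ganglia, a log2 difference of 0.20 (interval -0.08 to 0.48, limma adjusted p = 0.43). Its injury values all lay above its sham values, by a gap of 6.35 to 6.37 FPKM, so Abcb1a and Cldn5 were the 2 of 10 genes whose groups did not overlap, as for 25.4% of all tested genes. Abcb1b, a paralog of Abcb1a that was looked up after values were seen, was at 0.556 to 1.34 FPKM. Called genes were 1 of 10, beside 4.11% of all tested genes. Over all 9 libraries, positive differences were found for 9 of 10 genes with a median of 0.17, against 47.8% and a median of -0.01 over all genes tested.

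Pecam1, Cdh5 and Plvap, which join or shape endothelial cells, had overlapping groups. Pecam1 (ENSMUSG00000020717, chr11:106654217-106750628), the adhesion molecule CD31, measured 7.28, 9.89 and 8.68 FPKM after injury and 6.48, 8.23 and 6.59 in aged sham ganglia. Cdh5 (ENSMUSG00000031871, chr8:104101625-104144511), the core of endothelial adherens junctions, measured 6.12, 7.28 and 8.75 after injury and 5.75, 7.13 and 6.45 in aged sham ganglia. In both, aged injury replicate 1 was within the sham range. Plvap (ENSMUSG00000034845, chr8:71497765-71511752) had the widest spread, at 5.44, 10.25 and 10.26 FPKM after injury and 8.37, 5.87 and 5.9 in aged sham ganglia. Its log2 difference was 0.32 with an interval from -0.22 to 0.87, and replicate 1 was the lowest in the injury group and the highest in the sham group. Plvap overlaps the antisense gene Gtpbp3 by 1819 bases, and the handling of strand is not given in the sources used here, so reads of the pair cannot be told apart there.

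**Figure D2:**
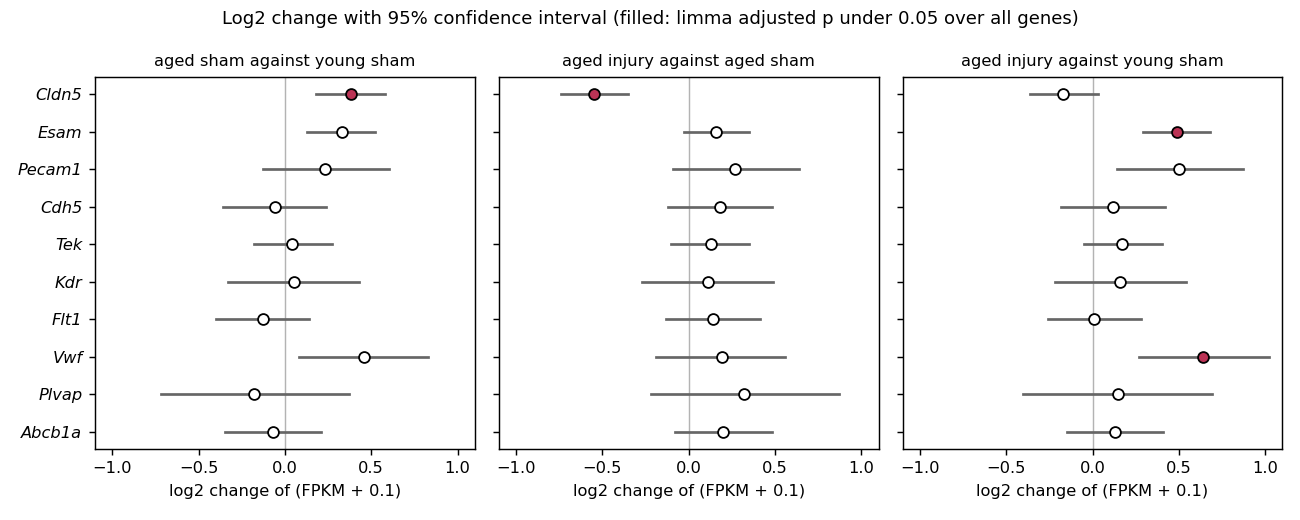
Log2 change of FPKM + 0.1 (horizontal axis) with its 95% confidence interval for the 10 genes in the 3 comparisons; filled points passed limma's adjusted p threshold over all genes. Cldn5 lies to the right of 0 with age (0.38) and to the left with injury (-0.55), where the other 9 genes lie at 0.11 to 0.32 with all 9 libraries in the fit.

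Compared with young sham ganglia, aged injured ganglia had higher Esam and Vwf. Esam measured 8.44, 8.17 and 9.48 FPKM after injury, all above the young values of 6.59, 5.95 and 6, a rise of 1.4-fold (log2 change 0.49, interval 0.29 to 0.68, limma adjusted p = 0.00935). This call was kept in 9 of 9 fits with 1 library left out. Vwf measured 2.21, 2.67 and 3.16 after injury, all above the young values of 2.02, 1.68 and 1.35, a rise of 1.56-fold (log2 change 0.64, interval 0.27 to 1.02, limma adjusted p = 0.0353). Without young sham replicate 2 or 3, aged sham replicate 2 or 3, or aged injury replicate 2 or 3, the Vwf call was lost (adjusted p = 0.0685, 0.116, 0.0568, 0.055, 0.0882 and 0.13), and it was kept without the remaining 3 libraries. It was also lost in 4 of the 8 other settings (adjusted p up to 0.0841).

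Across all 3 groups Esam and Vwf thus had their lowest mean in young sham and their highest in aged injury ganglia, and the pair had the highest correlation among the 10 genes (r = 0.91 over 9 libraries, which share group and depth). Pecam1 had a difference of similar size, 0.50 on the log2 scale (interval 0.14 to 0.87, limma adjusted p = 0.0722), but young sham replicate 1 (7.51 FPKM) overlapped the injury group. Without that library Pecam1 passed (log2 change 0.67, adjusted p = 0.047). Cldn5 after injury was also below all 3 young values, by a log2 difference of -0.17 (interval -0.36 to 0.03, adjusted p = 0.239). Tek, at 2.55, 2.57 and 2.43 FPKM after injury and 2.33, 2.01 and 2.34 in young ganglia, did not overlap and gave 0.17 (interval -0.05 to 0.40, adjusted p = 0.292). In all, 2 of 10 genes were called, beside 13.1% of all tested genes, and 4 of 10 did not overlap, beside 35.4%. The 3 comparisons share groups, so their values are not independent of each other.

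Relative to the other 9 genes, Cldn5 moved apart from them. It was 2.65, 3.08 and 2.82 times their geometric mean in the young libraries, 4.02, 3.47 and 3.11 times in aged sham and 2.47, 1.97 and 1.93 times in aged injury. The 3 groups of values did not overlap, and no test was made of this ratio, which was chosen after the values were seen. Over the 9 libraries the median correlation among the 45 pairs of genes was 0.40 and 36 pairs were positive, while the median correlation of Cldn5 with the other 9 was -0.29. Pecam1 had the highest such median (0.66). Aged injury replicates 2 and 3 carried 9 and 8 of the 9 other genes above their own mean over the libraries, against 5 of 9 in aged injury replicate 1 and 1 of 9 in young sham replicates 2 and 3. The libraries of 1 group thus differed among themselves in the shared level of these genes.

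**Figure D3:**
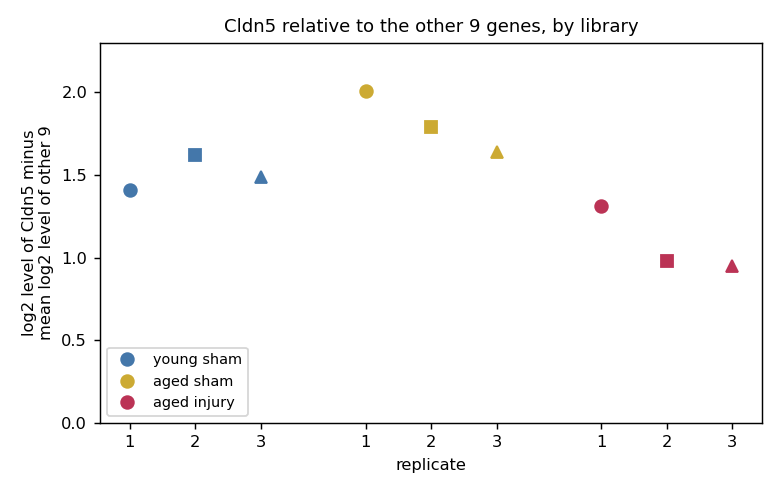
Log2 level of Cldn5 minus the mean log2 level of the other 9 genes (vertical axis, from 0) in each of the 9 libraries, by replicate number within group (horizontal axis). The 3 aged sham libraries lie highest and the 3 aged injury libraries lowest (ratios of 3.11 to 4.02 and 1.93 to 2.47), without overlap.

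The 8 other genes whose profile over the 9 libraries was most like the mean of the 10 were Tspan11 (r = 0.953), Zkscan16 (0.946), Arhgap25 (0.945), Pttg1ip (0.929), Spint2 (0.929), Iglv3 (0.919), Axin1 (0.917) and Igkv4-72 (0.916). None of them is in an endothelial list used here. The median correlation with that mean was 0.42 over 30 further pan-endothelial genes and 0.07 over all genes tested.

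Those 30 further pan-endothelial genes had 1 called gene with age, none with injury of aged mice and 7 in aged injury against young sham, where the shares over all tested genes were 4.02%, 4.11% and 13.1%. Sox18, a transcription factor of endothelial identity, was the gene called with age, at 1.498, 1.192 and 1.383 FPKM in young and 2.014, 3.043 and 2.828 in aged sham ganglia (log2 change 0.89, limma adjusted p = 0.0361). That call was kept only without young sham replicate 2 or aged sham replicate 1 and was lost without any of the other 7 libraries (adjusted p 0.0519 to 0.135). With injury of aged mice limma called 0 of 30, with 4 at an unadjusted p under 0.05 and 1 called by voom on the recovered reads, and the median log2 difference was 0.18. Against young sham, Eng, Sox18, Mmrn2, Rasip1, Ramp2 and Podxl rose, by 0.30 to 1.0 on the log2 scale, and Apln, the ligand of the apelin receptor, fell by 0.84. Podxl, a sialomucin of the luminal surface, measured 8.95, 7.78 and 9.32 FPKM after injury and 6.11, 5.36 and 5.32 in young ganglia (log2 change 0.62, limma adjusted p = 0.00623). The Podxl and Sox18 calls were kept in 9 of 9 fits with 1 library left out, those of Mmrn2 in 5, of Eng, Rasip1 and Ramp2 in 4 each and of Apln in 1.

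Among 17 tested barrier transporters, Slc2a1 and Slc7a1 were called as higher with injury of aged mice and none as lower, beside 4.11% of all tested genes called. Of the 17 log2 differences 13 were positive and 4 negative. Slc2a1 encodes the glucose transporter GLUT1 of barrier endothelium and perineurium. It measured 18.6, 18.9 and 18.6 FPKM in young sham, 27.2, 23.9 and 22.3 in aged sham and 41.4, 34.4 and 41.1 in aged injury ganglia, so that the 3 groups did not overlap. The rise with injury was 1.59-fold (log2 change 0.67, interval 0.46 to 0.87, limma adjusted p = 0.00766) and was kept in 9 of 9 fits with 1 library left out. Slc7a1, a cationic amino acid transporter gene, rose by 0.30 on the log2 scale (adjusted p = 0.0425), a call kept only without aged injury replicate 2. Against young sham 8 of 17 transporters rose, with Slc2a1 at 2.07-fold, Slc3a2 at 1.32-fold and Slc7a5 at 1.35-fold, the latter pair encoding the 2 chains of a large amino acid transporter. That count stands beside 13.1% of all tested genes. With 1 library left out, the calls of Slc2a1 and Slc3a2 were kept in 9 of 9 fits, Slc7a1 in 8, Abcg2 in 7, Slc7a5 in 5, Slco2b1 in 3 and Slc6a6 and Lrp1 in 2 each (adjusted p up to 0.126). Slc7a5 was lost without young sham replicate 1 or 3 or aged injury replicate 1 or 3 (adjusted p = 0.0601, 0.0504, 0.0718 and 0.0772). Between aged and young sham ganglia limma called 0 of 17, with 8 at an unadjusted p under 0.05 and 2 called by voom. Many of these transporters are also made outside vessels.

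Of 21 tested cell junction genes beside Cldn5, Esam and Cdh5, limma called 0 with age and 0 with injury of aged mice, with 3 at an unadjusted p under 0.05 in each and 1 and 0 called by voom. Against young sham Ctnna1 and Jup, which encode the cytoplasmic catenin and plakoglobin of adherens junctions, rose by 0.28 and 0.48 on the log2 scale. Those 2 of 21 genes stand beside 13.1% of all tested genes. The Ctnna1 call was lost without young sham replicate 1 or aged injury replicate 3 (adjusted p = 0.0521 and 0.051), and the Jup call without young sham replicate 1 or 3 or aged injury replicate 1 or 3 (adjusted p = 0.076, 0.0727, 0.0715 and 0.0772). Of 9 genes of caveolae and transcytosis, limma called 1 with age, 1 with injury and 3 against young sham, beside 4.02%, 4.11% and 13.1% of all tested genes. In each comparison 7 were positive and 2 negative, with medians of 0.09, 0.09 and 0.08. Cavin1 and Cavin3 were called only against young sham, kept in 0 and 4 of 9 fits with 1 library left out. Ehd4, an endocytic recycling gene, rose in all 3 comparisons: 21, 20.7 and 19 FPKM in young sham, 23.6, 24.8 and 24.3 in aged sham and 31.4, 29.7 and 30.7 in aged injury ganglia. With injury its log2 change was 0.33 (limma adjusted p = 0.015), lost without aged sham replicate 3, aged injury replicate 1 or aged injury replicate 3 (adjusted p = 0.0587, 0.0743 and 0.064). With age it was 0.26 (adjusted p = 0.0415), a call kept only without young sham replicate 2.

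The next list held ligands and co-receptors of the pathways of Kdr, Flt1 and Tek. Of 13 tested genes, Vegfb, a ligand of Flt1, rose with age by 0.39 on the log2 scale (14.8, 17.3 and 14 FPKM in young, 19.5, 19.7 and 21.3 in aged sham ganglia, limma adjusted p = 0.0474), a call kept only without young sham replicate 2. That 1 of 13 stands beside 4.02% of all tested genes. With age 6 of the 13 were positive and 7 negative (-0.32 to 0.39, median -0.02). Limma called 0 of 13 with injury and 0 of 13 in aged injury against young sham, with 2 at an unadjusted p under 0.05 in each and 0 called by voom in each. Of 14 tested genes of the Wnt and norrin programme that maintains barrier vessels, limma called 0 in each of the 3 comparisons, with 2, 1 and 2 at an unadjusted p under 0.05 and 1, 0 and 0 called by voom.

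Among 11 tested genes of endothelial activation, Lrg1 rose with age and Procr with injury of aged mice. Each was the 1 called gene of its comparison, beside 4.02% and 4.11% of all tested genes. Procr encodes the endothelial protein C receptor, an anticoagulant receptor at the vessel surface. It measured 2.13, 2.93 and 2.12 FPKM in young sham, 6.42, 2.91 and 3.25 in aged sham and 20.1, 13.3 and 18 in aged injury ganglia. The rise with injury was 4.21-fold (log2 change 2.07, interval 1.44 to 2.71, limma adjusted p = 0.00765), and the highest aged sham value was again that of replicate 1. Without aged injury replicate 3 the adjusted p was 0.0505 (log2 change 2.03). Lrg1, a secreted glycoprotein gene of activated endothelium, measured 2.470, 3.216 and 2.653 in young and 4.312, 4.578 and 4.369 in aged sham ganglia (log2 change 0.66, adjusted p = 0.0429), a call kept only without young sham replicate 2. Against young sham 5 of 11 rose, beside 13.1% of all tested genes: Icam1, Lrg1, Edn1, Procr and Thbd. With 1 library left out, the calls of Lrg1 and Procr were kept in 9 of 9 fits, Thbd in 5, Edn1 in 4 and Icam1 in 1, the last only without aged sham replicate 2 (adjusted p up to 0.16 in the others). All 11 log2 differences with injury of aged mice were positive, of 0.04 to 2.07.

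**Figure D4:**
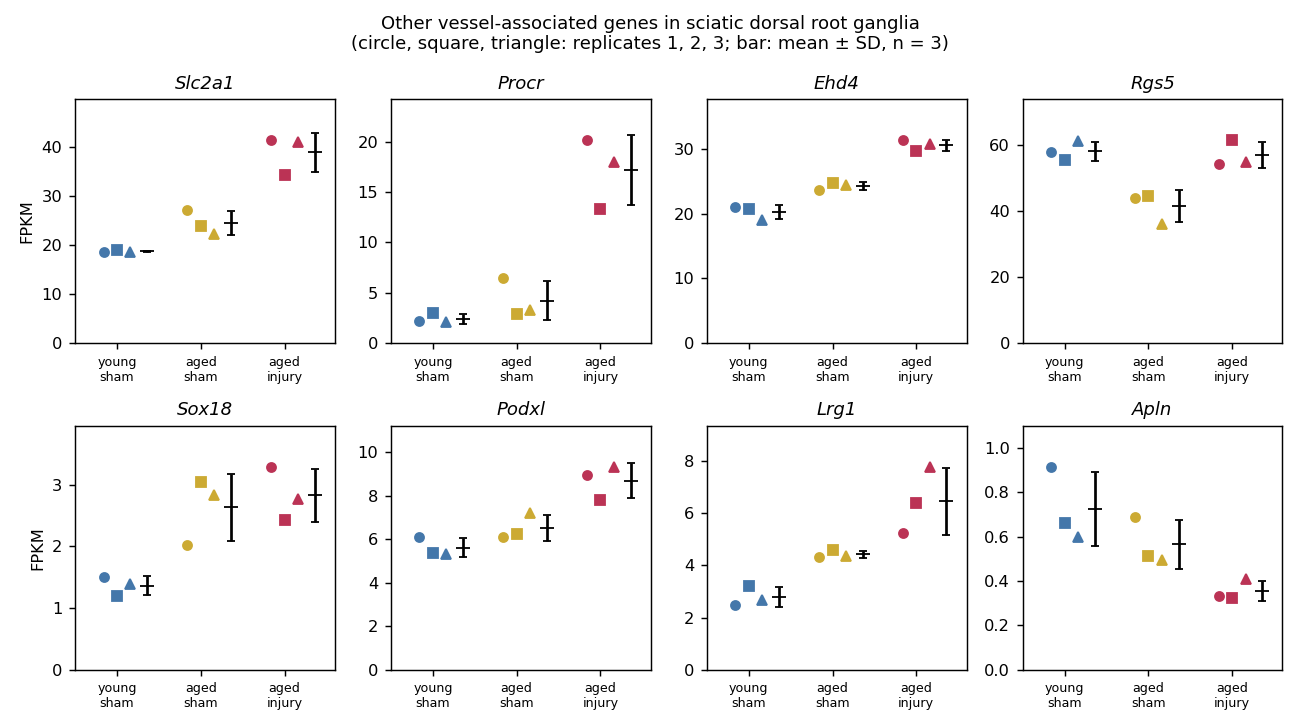
Levels in FPKM (vertical axes, from 0) of 8 further vessel-associated genes in the 3 groups; each point is 1 library and each bar the mean ± SD of 3. Slc2a1 lies at 18.6 to 18.9, 22.3 to 27.2 and 34.4 to 41.4 FPKM in young sham, aged sham and aged injury ganglia, and Rgs5 is lowest in aged sham ganglia.

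Mural cells, which wrap these vessels, gave 1 called gene of 14 in each comparison of the aged sham group. That count stands beside 4.02% of all tested genes with age and 4.11% with injury. The 14 genes went both ways. With age 5 were positive and 9 negative (log2 differences of -0.75 to 0.49, median -0.13). With injury 9 were positive and 5 negative (-1.4 to 0.46, median 0.27). Rgs5, a pericyte marker gene, measured 57.9, 55.3 and 61 FPKM in young sham, 43.9, 44.5 and 36 in aged sham and 54.3, 61.4 and 54.8 in aged injury ganglia. The aged sham values were the 3 lowest. Rgs5 fell by 0.49 on the log2 scale with age (limma adjusted p = 0.0331) and rose by 0.46 with injury (adjusted p = 0.0271), the opposite directions to Cldn5. The call with age was kept without young sham replicate 2, aged sham replicate 1 or aged injury replicate 2, and that with injury without young sham replicate 2 or 3 or aged sham replicate 1. Each call was lost in the other 6 fits (adjusted p up to 0.132 and 0.0894).

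Genes of blood cells, which the vessels hold, are given beside these values. The summed level of 8 red blood cell genes was 145, 295 and 387 FPKM in young sham, 495, 319 and 398 in aged sham and 270, 307 and 193 in aged injury libraries, so that the aged injury libraries lay below all aged sham libraries, as for Cldn5. Limma called 0 of 8 with age and with injury, with 3 at an unadjusted p under 0.05 and 1 called by voom in each, and the median log2 differences were 0.65 and -0.76. Near-identical copies among the hemoglobin genes make their single values uncertain. Of 9 tested platelet genes, Pf4 rose and Itgb3 fell with age, beside 4.02% of all tested genes called. The Pf4 call was lost without young sham replicate 1 or 3 or aged sham replicate 2 (adjusted p = 0.101, 0.111 and 0.0746), and the Itgb3 call was kept only without young sham replicate 2 (adjusted p 0.0666 to 0.167 in the other 8 fits). The summed platelet level was 13.3 to 14.2 FPKM in young sham, 16.4 to 23.1 in aged sham and 19.8 to 23.7 in aged injury libraries, without overlap between young and aged. Pf4 alone made up 4.59 to 5.22 FPKM of that sum in young sham, 7.16 to 10.07 in aged sham and 9.71 to 12.04 in aged injury libraries. The sum and its lack of overlap thus depend strongly on 1 gene and are no measure of platelet number. Platelets also carry Esam and Vwf, whose values in both aged groups lay above the young values. The platelet genes went 8 of 9 positive with age (median log2 difference 0.79). With injury of aged mice 7 of 9 were negative (median -0.58), while Esam and Vwf were at 0.16 and 0.19, neither called. Of 12 leukocyte genes 4 rose with age, beside 4.02% of all tested genes called, with sums of 69.3 to 81 FPKM in young and 108 to 140 in aged sham libraries. The part of these blood cell genes in the results for Cldn5, Esam and Vwf was not tested.

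**Figure D5:**
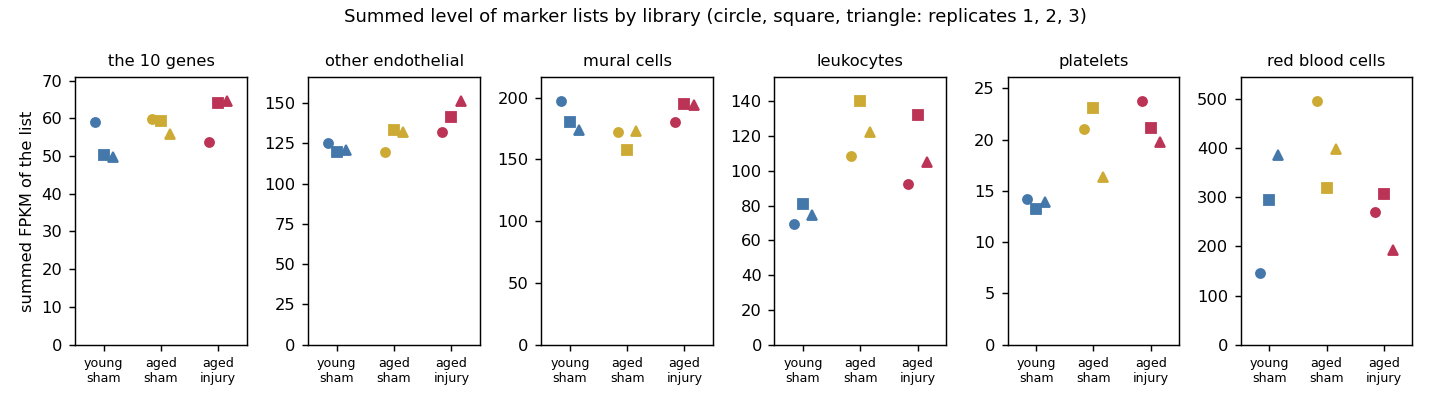
Summed FPKM (vertical axes, from 0) of the 10 genes and of 5 marker lists in each library of the 3 groups. The 10 genes sum to 49.8 to 64.4 FPKM, while red blood cell genes are lower in all aged injury (193 to 307) than in all aged sham libraries (319 to 495).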

How the data were processed

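RNA of whole sciatic dorsal root ganglia was sequenced from both ends in 9 libraries. The authors deposited FPKM values. Per the submitters' processing notes, the tools were FastQC 0.10.1, R 3.1.1, limma 3.22.7, HTSeq 0.6.0, TopHat2 2.0.12, edgeR 3.8.6, Bowtie2 2.2.3 and SAMtools 0.1.19 (roles not stated), on mm10. The sources used here do not give annotation release, strand handling or scaling. Symbols and positions came from GENCODE M21 on the same build (16841 of 17601 tested identifiers matched).

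Identifiers averaging 0.2 FPKM or more entered limma (version 3.58.1, under R 4.3.3) as log2(FPKM + 0.1), which understates changes of low genes, with a trend of variance on level and all 9 libraries in 1 fit. Tests were two-sided, p-values were adjusted by Benjamini-Hochberg over all 17601, and calls had an adjusted p under 0.05. Each p-value reflects variation among pools, which the labels do not say were separate cohorts. Scripts were tested on simulated data. In 17600 of 17601 identifiers a step up to 60000 multiples brought all values within 0.001 of whole reads, which served for depth and for voom, an alternative added after the data were seen. Intervals are limma's and counting errors cover sampling of reads only.

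Members and lists were chosen with earlier results of these data known. The rule named all 10 members, every called gene of each list (otherwise its 2 highest), and the 8 genes most correlated with the members' mean; the text names a part. Alternatives were another pseudocount, other filters and scalings, 2 groups alone, a replicate block, and each library left out.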

Additional observations from a re-analysis of the deposited data

How the results depend on the processing

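The test on FPKM called 707 genes with age, 723 with injury of aged mice and 2304 in aged injury against young sham. With age the count was 239 with no filter, 31 with the 2 groups alone and 1076 with voom, and with injury 302 with the 2 groups alone. Leaving out 1 library gave 23 to 1536 genes with age, 151 to 740 with injury and 869 to 2365 against young sham. Of the 10 genes, 1 was called with age, but 0 with a pseudocount of 1, with no filter, at equal medians, with the 2 groups alone or with voom, 2 with a filter at 1 FPKM, and 0 to 0 with 1 library left out. With injury the count of 1 became 0 to 1 with 1 library left out. Against young sham the count of 2 became 1 with no filter, with quantile normalization or with the 2 groups alone (the Vwf call was lost in each), 3 with voom (Pecam1 was added, adjusted p = 0.0488), and 1 to 3 with 1 library left out. Fewer genes or libraries enter some of these fits; otherwise the cause was not tested.

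The labels number replicates 1 to 3 in each group without saying that a number marks a shared animal or day. Same-numbered deviations correlated at -0.067 to -0.029 with age, 0.062 to 0.27 with injury and -0.046 to -0.02 against young sham; each aged injury library correlated best with its own number in aged sham, a hint from the data only. With a replicate block 101 genes were called with age and 273 with injury, and of the 10 genes 0 with age and 1 against young sham.

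Some small uncalled differences changed sign. With age, Tek became -0.006 at equal medians and -0.042 after quantile normalization, and Kdr -0.034 after quantile normalization. Against young sham, Flt1 became -0.07 and -0.082. With 1 library left out the ranges were, with age, -0.135 to 0.018 for Cdh5, -0.026 to 0.088 for Tek, -0.058 to 0.21 for Kdr and -0.179 to 0.055 for Abcb1a. They were -0.048 to 0.228 for Kdr with injury, and against young sham -0.004 to 0.251 for Cdh5, -0.081 to 0.094 for Flt1 and -0.006 to 0.446 for Plvap. Scaling also moved the split of all calls into higher and lower: with age from 445 and 262 to 281 and 536 at equal medians and 388 and 509 after quantile normalization, with injury from 432 and 291 to 287 and 294 at equal medians, and against young sham from 1444 and 860 to 1029 and 1670, and 1168 and 1241. At 118 to 633 reads per library, differences within 3.97% to 9.21% are within counting error.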

Other observations

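Cells around the vessels were also described by lists. Of 12 sensory neuron genes, Isl1 and Pou4f1, transcription factors of sensory neuron identity, fell with age by 0.33 and 0.39 on the log2 scale (limma adjusted p = 0.0284 and 0.0169), and Isl1 also fell with injury of aged mice by 0.26 (adjusted p = 0.0391). These counts, 2 and 1 of 12, stand beside 4.02% and 4.11% of all tested genes. With age 6 of the 12 were positive and 6 negative (log2 differences of -0.39 to 0.39, median -0.03). With injury all 12 were negative (-0.28 to -0.01, median -0.12). Limma called 2 of 12 glial genes with age, both lower, and 9 of the 12 were negative and 3 positive. Of the 2, Pmp22, which encodes a protein of peripheral myelin, fell by 0.63 (limma adjusted p = 0.00966). Of 12 leukocyte genes, Cd68, Csf1r, Tyrobp and Fcer1g rose with age by 0.57 to 1.20, beside 4.02% of all tested genes called. With age all 12 log2 differences were positive. With injury 1 of the 12 was called, beside 4.11%: Mrc1, a gene of resident macrophages, rose by 0.59 (limma adjusted p = 0.0482). The list as a whole went both ways with injury, with 4 positive and 8 negative (-0.41 to 0.59, median -0.05). In the 9 fits with 1 library left out, the calls with age were kept in 7 for Pmp22, 6 for Tyrobp, 5 for Pou4f1, 4 for Fcer1g, 3 for Isl1, 2 for Cd68 and 1 for Csf1r. Those with injury were kept in 2 for Isl1 and 1 for Mrc1. Of 5 tested lymphatic endothelial genes limma called 0 in each of the 3 comparisons, with 1, 0 and 1 at an unadjusted p under 0.05 and 0 called by voom in each.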
